A study of Mus musculus with 8 samples.

Results

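The miR-15/16 family was followed through an experiment in MIN6B1 cells, a mouse insulinoma line used as a model of the pancreatic beta cell. The sequences were chosen by name: every distinct sequence of the deposited table whose annotation hit begins mmu-miR-16-, mmu-miR-15a- or mmu-miR-15b- (mmu- marks the mouse), on either arm of the hairpin. This gave 16 of 11568 distinct sequences, of which 652 in all had a mature miRNA hit. There were 8 sequences of mmu-miR-16-5p, 5 of mmu-miR-15b-5p, 1 of mmu-miR-15a-5p and 2 of mmu-miR-15b-3p, written below without the prefix. The family was picked because an earlier account of these data had singled out miR-16-5p by its low value in oxidized RNA from cells with the methyltransferase plasmid. That contrast is therefore described without a test.

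All 4 groups were total RNA from the same cell line after transfection with a lipid reagent. A group had received either a control plasmid or a plasmid for HENMT1ΔC-T6B, a small RNA methyltransferase joined to a peptide that binds Argonaute. RNA of each kind was sequenced without oxidation or after oxidation with sodium periodate, with 2 libraries in each group. The share of cells that took up a plasmid was not measured in the files, so the libraries hold transfected and untransfected cells together. In such bulk RNA, fewer cells with the enzyme and less enzyme per cell cannot be told apart. Nothing in the labels says that the libraries of a group came from separate cultures, so p-values measure only the spread between these libraries, which may be technical.

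MicroRNAs of this family share a seed, the bases near the 5′ end that pair with target messenger RNAs, and are known for restraining cell cycle and survival genes such as cyclins and Bcl2. Each mature strand is carried by an Argonaute protein, which holds its 3′ end in a pocket of the PAZ domain. HENMT1 enzymes place a methyl group on the 2′ hydroxyl of the 3′ terminal nucleotide. Periodate oxidizes unmodified 3′ ends and so keeps them from adapter ligation, whereas methylated ends can still be ligated.

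The mature sequences of the named miRNAs are shown first because the shared seed, bases 2 to 8 in capitals, defines the family. They are RefSeq sequences on GRCm38.p6, and all 4 names matched. The seed is the same in the 3 strands from the 5′ arm, while miR-15b-3p, from the other arm, has another.
miR-16-5p: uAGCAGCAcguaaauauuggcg
miR-15b-5p: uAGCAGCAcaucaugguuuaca
miR-15a-5p: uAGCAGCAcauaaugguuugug
miR-15b-3p: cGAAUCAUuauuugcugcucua

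On GRCm38.p6, mature miR-16-5p lies at chr3:69009918-69009939 on the plus strand, from Mir16-2, and at chr14:61631936-61631957 on the minus strand, from Mir16-1. Reads of miR-16-5p cannot be assigned to one of these genes, since the mature sequence is identical. MiR-15b-5p (chr3:69009775-69009796) and miR-15b-3p (chr3:69009813-69009834) come from Mir15b, which ends 66 bases before Mir16-2. Both genes lie inside Smc4 and overlap none of its exons in GENCODE M21. MiR-15a-5p (chr14:61632075-61632096) comes from Mir15a, 54 bases from Mir16-1 and inside Dleu2, a non-coding host gene. Mir16-1 overlaps an exon of Dleu2 and Mir15a does not.

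The family's reads differed chiefly at the 3′ end, where the methyl group would be placed. The forms on which the results turn are therefore shown as deposited, in DNA letters, with the 3′ base in capitals.
miR-16-5p, 20 nt: tagcagcacgtaaatattgG
miR-16-5p, 21 nt: tagcagcacgtaaatattggC
miR-16-5p, 22 nt: tagcagcacgtaaatattggcG
miR-16-5p with the next precursor base, 23 nt: tagcagcacgtaaatattggcgT
miR-16-5p with an added A, 23 nt: tagcagcacgtaaatattggcgA
miR-16-5p lacking the first base, 21 nt: agcagcacgtaaatattggcG
miR-15b-5p, 20 nt: tagcagcacatcatggtttA
miR-15b-5p, 21 nt: tagcagcacatcatggtttaC
miR-15b-5p, 22 nt: tagcagcacatcatggtttacA
miR-15a-5p, 21 nt: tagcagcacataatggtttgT
The 22-nt forms of miR-16-5p and miR-15b-5p are the RefSeq mature strands. The listed miR-15a-5p is 1 base shorter than RefSeq's, whose 22-nt form was not analysed here, nor were miR-15a-3p, miR-16-1-3p and miR-16-2-3p.

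Counts over the listed sequences ranged from 295094 to 6641250 per library. Every sequence in the table has 2 counts or more in both oxidized methyltransferase libraries and 10 or more over the pair, so these totals are not full depths. Mature miRNA counts were 13772 and 10115 in the oxidized control libraries and 1643283 to 4377659 in the other 6. A count of 0 in the oxidized control libraries allows up to 0.0218% and 0.0297% of their mature miRNA counts (3 counts of the total, counting error only). The beta cell markers miR-375-3p and miR-7a-5p made up 23.4% and 25.1% of mature counts in the non-oxidized control libraries, where markers of neurons, hepatocytes and mesenchyme reached at most 0.101%, and none of 3 muscle and 5 blood cell markers was listed.

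MiR-16-5p was the most abundant miRNA of the family in every library. The 22-nt form of mmu-miR-16-5p had 210722 and 242745 counts in the non-oxidized control libraries, 145502 and 188275 in the non-oxidized methyltransferase libraries, 54 and 59 in the oxidized control libraries and 2389 and 1386 in the oxidized methyltransferase libraries. Both oxidized groups lay far below both non-oxidized groups, and the oxidized control libraries were the lowest, with no overlap. As a share of mature miRNA counts, which does not depend on a scaling factor, the form stood at 5.99% and 5.55%, 6.47% and 6.18%, 0.392% and 0.583%, and 0.117% and 0.0843% in the same order of groups. By this measure the oxidized methyltransferase libraries, not the oxidized control libraries, were the lowest.

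The shorter forms of miR-16-5p were far scarcer before oxidation and less so after it. The 21-nt form had 16434 and 18600 counts before oxidation with the control plasmid and 6174 and 7553 with the methyltransferase, and after oxidation 101 and 56 with the control plasmid and 1039 and 1338 with the methyltransferase. In one oxidized control library it outnumbered the 22-nt form, and in one oxidized methyltransferase library it nearly equalled it. The 20-nt form had 3035 and 3878, 1726 and 2273, 15 and 15, and 304 and 135 counts in that order. Its groups also did not overlap.

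MiR-15b-5p was the next most abundant miRNA, at far lower counts. Its 22-nt form had 3495 and 3098 counts before oxidation with the control plasmid and 2652 and 1752 with the methyltransferase, and after oxidation 0 and 0 with the control plasmid and 221 and 198 with the methyltransferase. Its 21-nt form had 1816 and 1687, 965 and 664, 0 and 0, and 32 and 21 counts. Both forms had counts after oxidation only in the libraries with the methyltransferase. As a share of mature miRNA counts the 22-nt form stood there at 0.0108% and 0.012%, below what a count of 0 allows in the oxidized control libraries, so by share a difference between the plasmids was not detectable at this depth. The 20-nt form had 65 and 89, 85 and 58, 0 and 0, and 29 and 25 counts, and the 19-nt form 141 and 166, 66 and 72, 0 and 0, and 8 and 3.

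MiR-15a-5p had 1133 and 1438 counts before oxidation with the control plasmid and 459 and 328 with the methyltransferase, and after oxidation 0 and 4 with the control plasmid and 24 and 33 with the methyltransferase. Its non-oxidized groups did not overlap, the methyltransferase libraries being lower. MiR-16-5p lacking its first base had 824 and 992, 641 and 768, 0 and 0, and 9 and 2 counts. A form with C as first base, which has 0 genomic matches in the table, had 203 and 355, 329 and 286, 1 and 1, and 7 and 7 counts. The other 7 sequences had a mean under 50 counts over the 8 libraries. They were the 17-, 18- and 19-nt forms of miR-16-5p, the 18- and 20-nt forms of miR-15b-5p and both forms of miR-15b-3p, the passenger strand. The 22-nt miR-15b-3p had 23 and 18, 20 and 16, 0 and 0, and 4 and 6 counts, and the 21-nt form 55 and 54, 23 and 16, 0 and 0, and 2 and 9. The 17-nt miR-16-5p had at most 7 counts in any library.

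**Figure D1:**
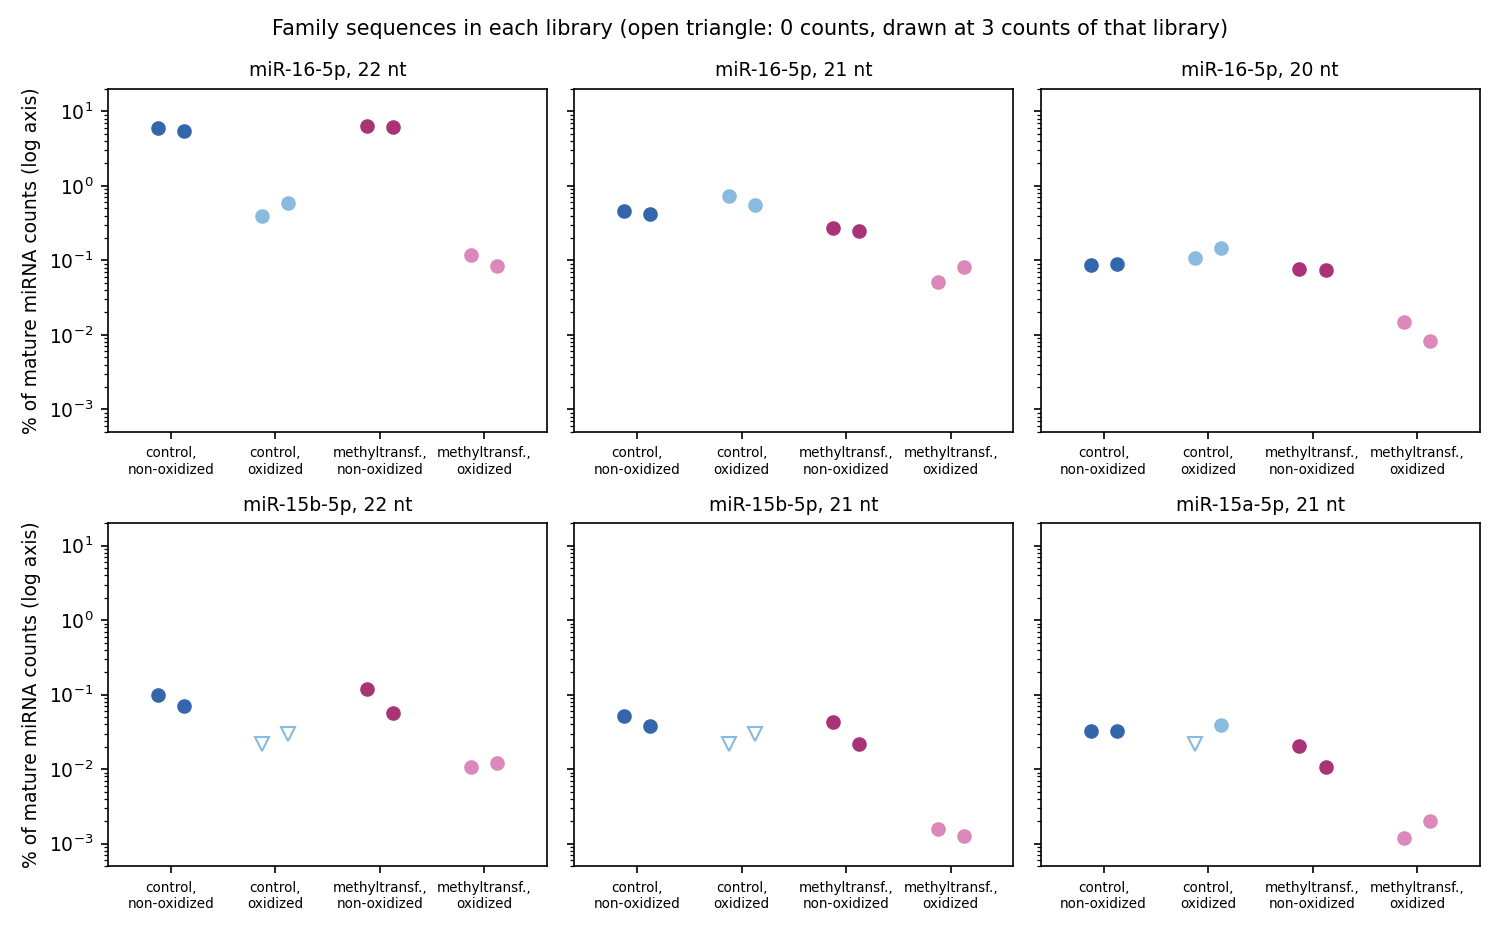
Percent of mature miRNA counts (log axis) for the family sequences in each of the 8 libraries, by group, with 2 points per group; an open triangle is a count of 0 drawn at 3 counts of that library. The 22-nt miR-16-5p stands at 5.99% and 5.55% in non-oxidized control libraries and at 0.117% and 0.0843% in the oxidized methyltransferase libraries.

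The plasmids were compared in oxidized RNA to see which sequences were retained with the methyltransferase. Of the 16 family sequences, 15 passed the filter on low counts; the 17-nt miR-16-5p did not. In a fit of all 8 libraries with edgeR's quasi-likelihood test and Benjamini-Hochberg adjustment over 9851 sequences, 12 of the 15 were higher with the methyltransferase and 0 lower, against 42.3% of all tested sequences called higher and 3.92% called lower. Scaled to total counts instead, 5 were called higher and 3 lower, and among miRNA and precursor sequences alone 3 higher and 3 lower. The oxidized methyltransferase libraries also belong to the contrast by which the family was chosen. The listing itself was selected on counts in both oxidized methyltransferase libraries. For the 7 tested family sequences with no counts in oxidized control RNA, all of them called higher, the direction was therefore fixed in advance. Their p-values are given as descriptions and lend no support to a difference.

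The 22-nt miR-16-5p was higher by 5.08 ± 0.45 (log2 ± SE, n = 2 against 2, edgeR adjusted p = 4.13e-06). Its difference was positive under each of 16 alternatives, from 0.93 among miRNA sequences alone to 5.77. By share of mature miRNA counts, not among these alternatives, it was lower with the methyltransferase (0.117% and 0.0843%) than with the control plasmid (0.392% and 0.583%). This form was singled out by its low value in the same oxidized methyltransferase libraries, so its p-value is a description. The 21-nt form was higher by 4.08 ± 0.41 (edgeR adjusted p = 1.07e-05) but stood at -0.12 among miRNA sequences alone. The 20-nt form was higher by 3.89 ± 0.47 (edgeR adjusted p = 3.73e-05), and -0.28 among miRNA sequences alone. These folds sit below those of the abundant let-7c-5p, a tumour-suppressor family member, at 11.22 ± 0.55, and of miR-375-3p, a beta-cell-enriched miRNA, at 9.88 ± 0.65. The differences between those miRNAs and miR-16-5p were not tested.

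The 22-nt mmu-miR-15b-5p, with no counts in oxidized control RNA, was called higher (edgeR adjusted p = 3.15e-06), the direction that the listing had fixed. With 3 counts per library as the floor, it was at least 72.9-fold higher on the TMM scale and at least 8.95-fold higher per listed count, while shares of mature miRNA counts gave no lower bound. Its 21-nt form was at least 9.07-fold higher on the TMM scale (edgeR adjusted p = 5.9e-05) and its 20-nt form at least 9.38-fold higher (edgeR adjusted p = 0.000111), but at least 1.11- and 1.15-fold higher per listed count, again with no bound by share of mature counts. MiR-15a-5p was higher by 3.81 ± 0.84 (edgeR adjusted p = 0.00248), and -0.25 among miRNA sequences alone. With total-count scaling the 20-nt miR-16-5p and miR-15a-5p were no longer called (edgeR adjusted p = 0.091 and 0.426), nor was the 21-nt miR-15b-5p among miRNA sequences alone (edgeR adjusted p = 0.0583). Calls on the scarcest forms rested on few counts: that for miR-16-5p lacking its first base was lost without oxidized methyltransferase replicate 1 (edgeR adjusted p = 0.0604), and that for the form with C as first base without oxidized control replicate 1 (edgeR adjusted p = 0.0624).

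The 3 sequences not called were of 18 and 19 nt, although the 19-nt miR-15b-5p, with no counts in oxidized control libraries, was called higher. The 19-nt miR-16-5p, with 13 and 11 counts in oxidized control libraries and 6 and 5 in the methyltransferase ones, stood at -1.02 ± 0.56 (edgeR adjusted p = 0.172). The 18-nt forms of miR-16-5p and miR-15b-5p stood at -0.75 ± 0.64 and -0.77 ± 0.69. Under total-count scaling these 3 were the ones called lower, at -4.04, -3.76 and -3.79. The median over the 15 was 5.08, or 2.75 with the 7 sequences absent from oxidized control RNA at their bound on the TMM scale, beside 0.82 over all tested sequences and 6.49 over the 607 mature miRNA sequences tested. The authors' deposited signed fold sets oxidized control against oxidized methyltransferase RNA and is negative where the control was lower. It was -41.2 for the 22-nt miR-16-5p, -19.3 for its 21-nt form and -1416 for the 22-nt miR-15b-5p. The last was taken against 0 and 0 counts in oxidized control RNA. There the floor gave only at least 72.9-fold on the TMM scale and 8.95-fold per listed count, with no bound by share of mature counts.

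Before oxidation, no family sequence was called different between the plasmids by edgeR, as for all tested sequences (0% called higher and 0% called lower). At an unadjusted p under 0.05 by edgeR there were 7 of 15, against 8.71% of all tested sequences. Of the 11 family sequences to which DESeq2's Wald test gave an adjusted p, it called 2 lower and 0 higher, against 2.29% and 1.02% of all 3718 such sequences. The 22-nt miR-16-5p stood at -0.47 ± 0.37 (edgeR adjusted p = 0.781), and at 0.05 with total-count scaling and 0.23 among miRNA sequences alone. The 21-nt form stood at -1.38 ± 0.37 (edgeR adjusted p = 0.301) and miR-15a-5p at -1.71 ± 0.57 (edgeR adjusted p = 0.41), and these were the sequences that DESeq2 called lower, at -1.61 and -1.91 (DESeq2 adjusted p = 0.0208 and 0.0291). Over the 15 sequences the median was -1.01, beside 0.05 over all tested sequences and -0.63 over mature miRNA sequences.

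Without the methyltransferase, oxidation lowered all 15 tested family sequences, against 46.4% of all tested sequences called lower and 18.4% called higher; the 18- and 19-nt forms of miR-16-5p and the 18-nt miR-15b-5p were instead called higher with total-count scaling or among miRNA sequences alone. The 22-nt miR-16-5p fell by 12.3 ± 0.60 on the log2 scale (edgeR adjusted p = 2.24e-07), and stood at -7.88 with total-count scaling. Its 21-nt form fell by 8.21 ± 0.50 (edgeR adjusted p = 3.2e-07) and its 20-nt form fell by 8.19 ± 0.55 (edgeR adjusted p = 4.23e-07). These sizes depend on the scaling: the 2 forms stood at -3.80 and -3.77 with total-count scaling and at -1.91 and -1.93 among miRNA sequences alone. As a share of mature miRNA counts they were higher after oxidation, at 0.733% and 0.554% against 0.467% and 0.425% for the 21-nt form, and at 0.109% and 0.148% against 0.0863% and 0.0886% for the 20-nt form. The 22-nt miR-15b-5p was called lower (edgeR adjusted p = 3.5e-07), at least 1390-fold on the TMM scale, 65.6-fold per listed count and 3.31-fold by share of mature counts. The smallest changes were those of the 18-nt miR-16-5p, -1.74 ± 0.60, and the 18-nt miR-15b-5p, -1.83 ± 0.65 (edgeR adjusted p = 0.0231 and 0.0265). With 1 library left out, 13 to 15 sequences were called lower, with total-count scaling 11, with the upper quartile 12 and among miRNA sequences alone 10. The median was -8.96, or -8.19 with absent sequences at their bound on the TMM scale, beside -1.14 over all tested sequences and -8.69 over mature miRNA sequences.

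Within methyltransferase RNA, the value by which the family was chosen, the 22-nt miR-16-5p stood at -6.75 ± 0.48 in oxidized against non-oxidized libraries. It was among the most strongly lowered of the listed miRNA sequences: 4 of 607 mature sequences tested lay below it. The most abundant sequence of each miRNA name was ranked where it averaged at least 50 counts in non-oxidized control libraries. This gave 153 names with 150 distinct sequences. The 22-nt miR-16-5p ranked 3 from the lowest, after miR-138-5p (-8.04), a brain-enriched miRNA, and miR-122-5p (-7.34), the liver miRNA. MiR-15a-5p, at -4.03 ± 0.65, ranked 21, miR-15b-5p, at -3.67 ± 0.43, ranked 25, and miR-15b-3p, at -2.02 ± 0.75 for its more abundant 21-nt form, ranked 84. By contrast let-7c-5p stood at -0.14 ± 0.36, let-7b-5p at -0.38 ± 0.35 and miR-375-3p at -1.39 ± 0.45. The direction for the 22-nt miR-16-5p held under 4 other scalings, from -6.67 to -5.36. Every listed sequence had 2 counts or more in both oxidized methyltransferase libraries and 10 or more over the pair. Sequences lost more fully may thus be missing from these ranks, and a scarce sequence could not show a large fall. The 21-nt miR-15b-3p, at 2 and 9 counts after oxidation, lay near that limit, so its rank cannot be set against that of miR-16-5p.

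**Figure D2:**
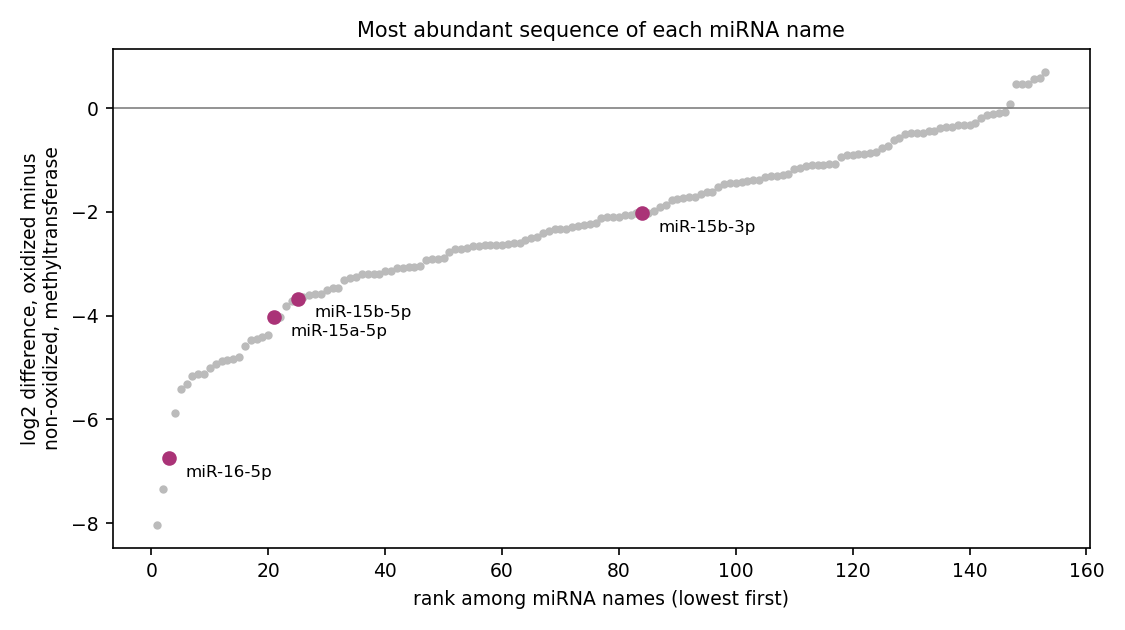
Log2 difference of oxidized against non-oxidized methyltransferase RNA for the most abundant sequence of each of 153 miRNA names, ordered from lowest to highest, with the family's miRNAs marked. MiR-16-5p ranks 3 from the lowest, while miR-15a-5p, miR-15b-5p and miR-15b-3p rank 21, 25 and 84. Only sequences with counts in both oxidized methyltransferase libraries are listed, which limits how low a scarce sequence can lie. Names were ranked where that most abundant sequence averaged at least 50 counts in non-oxidized control libraries.

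The forms of miR-16-5p differed from one another in this contrast. The 21-nt form stood at -2.75 ± 0.39, the 20-nt form at -3.48 ± 0.43 and the 19-nt form at -2.82 ± 0.54. Forms that share the 3′ end of the 22-nt sequence but not its first base stood close to it: -7.26 ± 0.61 without the first base and -5.69 ± 0.54 with C as first base. The form without the first base rested on 9 and 2 counts, and was -8.49 without oxidized methyltransferase replicate 1. The form with C as first base is 1 substitution from the 22-nt sequence and has 0 genomic matches. Whether it is a misread copy was not tested.

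Sequences longer than 22 nt, which are not family members by name, lay higher. The 23-nt form that carries the next base of the precursor had 10050 and 11312 counts before oxidation with the control plasmid and 4139 and 4477 with the methyltransferase, and after oxidation 0 and 0 with the control plasmid and 921 and 601 with the methyltransferase. It stood at -2.78 ± 0.37. An earlier account had named this form too, for its change with oxidation in control RNA, so it is likewise given without a test. The 24-nt precursor forms that end in T and in A stood at -3.06 ± 0.52 and -1.22 ± 0.60. The form with an added A, at 809 and 783, 421 and 431, 0 and 0, and 270 and 127 counts, stood at -1.41 ± 0.41. Over the 4 sequences that add 1 base to the 22-nt form, values ran from -2.78 to -0.13. The highest was the form with an added C, on 63 and 24 counts. The form with an added G, which also ends in G, stood at -1.53 ± 0.60, on 20 and 6 counts. Over 17 sequences with 1 substitution that end in the same G as the 22-nt form, values ran from -6.74 to -4.99 with a median of -5.56. One base of A12N is uncalled, and the rest of these have no genomic match. Whether they are misread copies of the 22-nt form, rather than separate forms with its 3′ end, was not tested. A further 4 sequences that are 1 substitution from the 22-nt form were classed as shorter forms with added bases, at -6.55 to -2.63. Those among them that end in G stood at -5.58 and -4.87.

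The most abundant of those substituted sequences carried G10A, counted from 1 at the 5′ end, with 998 and 1738, 1268 and 2424, 0 and 2, and 48 and 17 counts, and stood at -6.11 ± 0.68. A2G and A8G, the next 2, stood at -5.52 and -5.56. The 21-nt miR-16-5p with an added A (tagcagcacgtaaatattggcA), which does not end in G, stood at -6.55, on 591 and 750 counts before and 11 and 6 after oxidation. These comparisons between forms were made after their values were seen and carry no test.

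**Figure D3:**
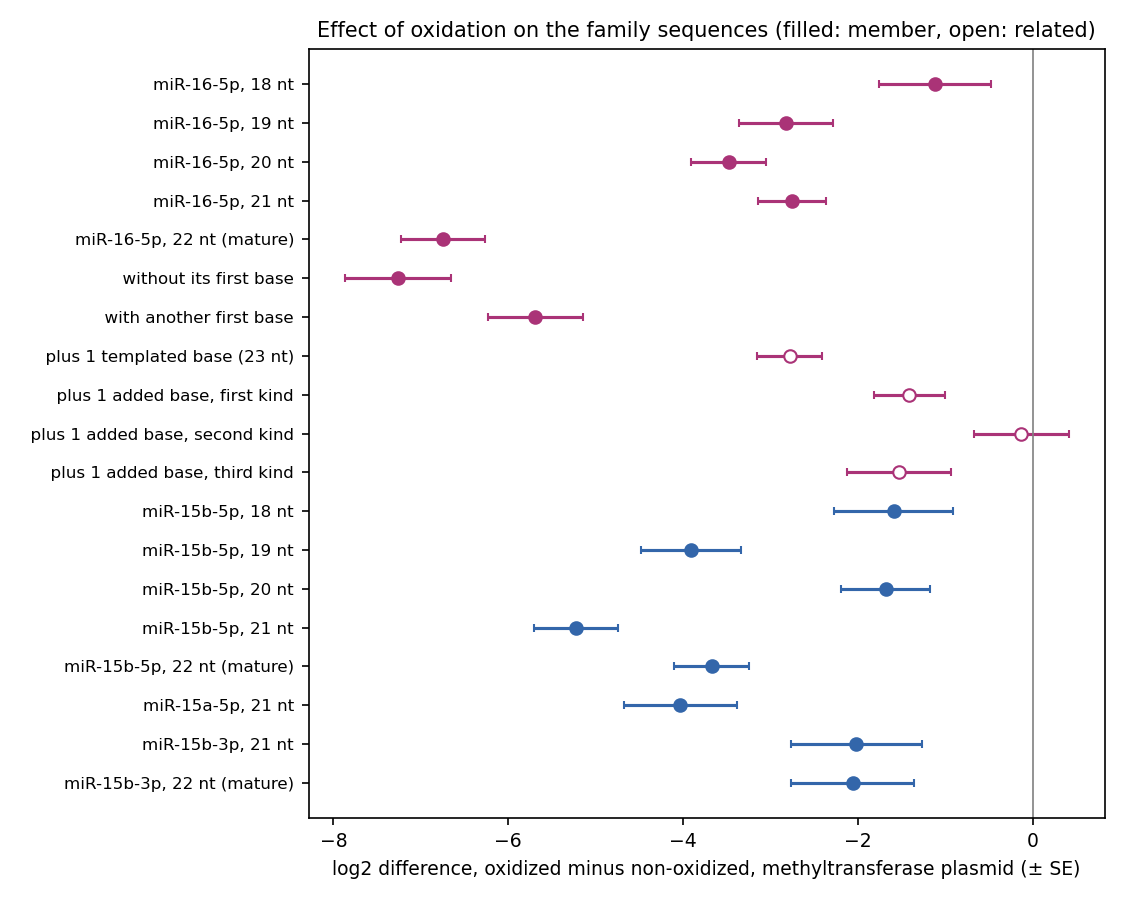
Log2 difference (± SE) of oxidized against non-oxidized methyltransferase RNA, filled for the 15 tested members and open for 4 related sequences that add 1 base to the 22-nt miR-16-5p. Other related sequences are not drawn, among them the 17 with 1 substitution, at -6.74 to -4.99. The 22-nt miR-16-5p at -6.75 lies below its 20- and 21-nt forms, at -3.48 and -2.75, and below the 23-nt form at -2.78.

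Ratios within a library need no scaling. Per 100 counts of the 22-nt miR-16-5p there were 7.8 and 7.66 of the 21-nt form in non-oxidized control libraries and 4.24 and 4.01 in non-oxidized methyltransferase libraries. After oxidation there were 43.5 and 96.5 in methyltransferase libraries and 187 and 94.9 in control libraries. The oxidized ranges overlapped between plasmids, and both lay above all non-oxidized libraries. For the 23-nt form the ratio was 4.77 and 4.66, then 2.84 and 2.38, and after oxidation with the methyltransferase 38.6 and 43.4. Forms that keep the 3′ end did not all move alike. For the form lacking its first base the ratio was 0.391 and 0.409, then 0.441 and 0.408. After oxidation with the methyltransferase it was 0.377 and 0.144, below the non-oxidized libraries but on 9 and 2 counts. For the form with C as first base it was 0.0963 and 0.146, then 0.226 and 0.152. After that oxidation it was 0.293 and 0.505, above the non-oxidized libraries, on 7 and 7 counts. G10A went from 0.871 and 1.29 in non-oxidized methyltransferase libraries to 2.01 and 1.23, with overlap.

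MiR-15b-5p showed another pattern. Per 100 counts of its 22-nt form, which ends in A, there were 36.4 and 37.9 of the 21-nt form, which ends in C, in non-oxidized methyltransferase libraries and 14.5 and 10.6 after oxidation. The 20-nt form, which ends in A, went from 3.21 and 3.31 to 13.1 and 12.6. Against 100 counts of the 22-nt miR-16-5p, the 22-nt miR-15b-5p went from 1.82 and 0.931 to 9.25 and 14.3, and miR-15a-5p from 0.315 and 0.174 to 1 and 2.38. The libraries of these groups did not overlap for any of these 4 ratios.

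Among the templated forms of miR-16-5p that share the mature first base, the 22-nt form made up 92.1% and 92.8% in non-oxidized methyltransferase RNA and 50.1% and 39.6% after oxidation, on 4764 and 3502 counts. The 21-nt form went from 3.91% and 3.72% to 21.8% and 38.2%, and the 23-nt form from 2.62% and 2.21% to 19.3% and 17.2%. In oxidized control RNA, on 209 and 149 counts, the 22-nt form was 25.8% (95% Wilson interval 20.4 to 32.2) and 39.6% (32.1 to 47.6). No count of the 23-nt form was seen there, which allows up to 1.44% and 2.01%. The intervals cover counting error only.

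**Figure D4:**
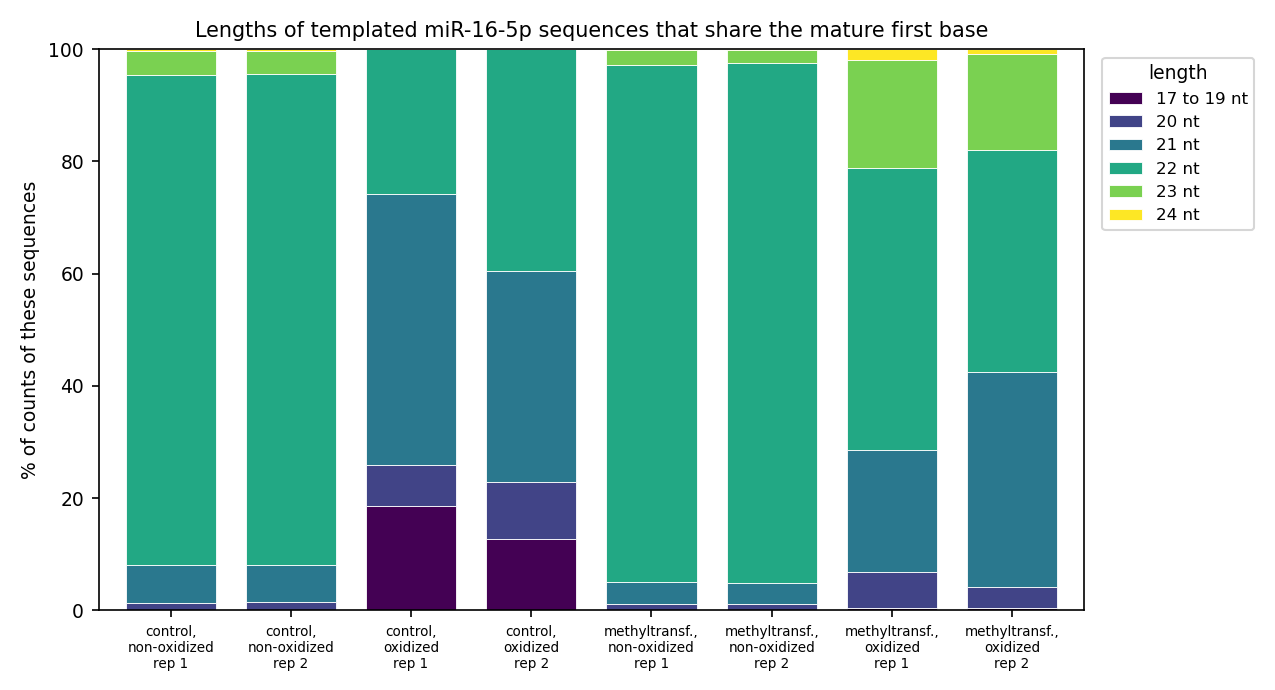
Percent of the counts of templated miR-16-5p sequences that share the mature first base, by length, stacked for each of the 8 libraries. The 22-nt form makes up 92.1% and 92.8% in non-oxidized methyltransferase libraries and 50.1% and 39.6% in oxidized ones.

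The summed family made up 6.51% ± 0.374 (mean ± SD, n = 2) of mature miRNA counts before oxidation with the control plasmid and 6.84% ± 0.299 with the methyltransferase, and after oxidation 1.66% ± 0.0868 with the control plasmid and 0.197% ± 0.0044 with the methyltransferase. The share in oxidized RNA was thus lower with the methyltransferase, opposite to the fitted differences; as a share of all listed counts it was 0.131% with the methyltransferase and 0.0546% with the control plasmid. This difference is given without a test, since the low share in oxidized methyltransferase RNA is the value by which the family was chosen. For the plasmids before oxidation, an exact two-sided permutation test gave p = 0.667, where 2 libraries against 2 cannot go below 0.333.

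The base at the 3′ end was tabulated for other miRNAs after the values of the family had been seen. Among mature and precursor sequences with a mean of at least 50 counts, family left out, the median in oxidized against non-oxidized methyltransferase RNA was -3.2 for 111 sequences ending in G, -1.65 for 86 ending in A, -1.46 for 63 ending in C and -1.49 for 238 ending in U. In 65 pairs of sequences outside the family that differ by a final G, the longer was lower in 44, with a median difference of -0.96. The longer was lower in 9 of 36 pairs that differ by a final C (median 1.4), in 14 of 56 by a final A (median 0.41) and in 70 of 136 by a final U (median -0.02). Isoforms of 1 miRNA share a source, so these are descriptions.

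Likeness to the 22-nt miR-16-5p over the 8 libraries was measured by Pearson's r of log2(TMM CPM + 1). Of the 153 ranked names, those most alike outside the family were miR-182-5p (0.999), miR-30d-5p (0.997), miR-30c-1-3p (0.997), miR-1839-5p (0.994) and miR-671-5p (0.994). The 8 points share their libraries and fall into oxidized and non-oxidized clusters, so these r values only order the miRNAs. Of these 5, 4 end in G. Among the most abundant sequences of the ranked names outside the family, 27 end in G, 29 in A, 26 in C and 64 in U. The 5 stood at -5.88, -4.42, -3.08, -4.02 and -5.32 in oxidized against non-oxidized methyltransferase RNA. They were picked over libraries that include this contrast, so their low values there give no separate support.

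The seed of the family is shared by 10 mouse miRNA names in the RefSeq table, of which 5 were listed: the 3 described above, miR-195a-5p and miR-497a-5p. The other 5 were not analysed here. The 2 further ones are shown because they carry the same seed with other 3′ ends.
miR-195a-5p: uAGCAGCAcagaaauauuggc
miR-497a-5p: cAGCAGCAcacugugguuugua
MiR-497a-5p had 493 and 557 counts before oxidation with the control plasmid and 185 and 247 with the methyltransferase, and after oxidation 0 and 0 with the control plasmid and 54 and 23 with the methyltransferase. It was called higher with the methyltransferase in oxidized RNA (edgeR adjusted p = 4.5e-05), at least 12.9-fold on the TMM scale and 1.58-fold per listed count, with no bound by share of mature counts, and stood at -2.78 ± 0.47 in oxidized against non-oxidized methyltransferase RNA. MiR-195a-5p had 140 and 124, 44 and 34, 0 and 0, and 5 and 16 counts, was at least 3.89-fold higher on the TMM scale (edgeR adjusted p = 0.00214), with no bound on the other 2 scales, and stood at -2.09 ± 0.65. Both lay above the 22-nt miR-16-5p in that contrast, a difference that was not tested. As neither had counts in oxidized control RNA, the listing fixed their direction between the plasmids there, and those p-values are descriptions.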

How the data were processed

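Small RNA libraries were made with the QIAseq miRNA kit, per the labels' protocols. The authors deposited 1 table with a raw count of each distinct read sequence in each of 8 libraries, per the file headers. Its signed fold changes, read here as a score, are the authors' deposited values, and its p-values, deposited by the authors with those folds, are not printed. The 16 per-sample columns of normalized values were not used. Aligner, genome build, trimming and the use of molecular identifiers are not given in the sources used here. Lines that repeat a sequence were merged (12608 lines, 11568 sequences).

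The members and lists were chosen with earlier results of these data known. Counts were fitted with edgeR 4.0.16 (R 4.3.3; TMM, filterByExpr, 4 groups in 1 quasi-likelihood model, 9851 sequences tested), and a call is an adjusted p under 0.05. SE is the log2 difference divided by the square root of F. Named were all members, with every library's count from a mean of 50, the 3 most abundant related sequences of each kind, listed seed-mates and the 5 most alike miRNAs. Sequences at 0 in both libraries of a group are compared with 3 counts per library. Of the marker lists, 2 of 2 beta cell, 1 of 1 hepatocyte, 0 of 3 muscle, 0 of 5 blood cell, 2 of 3 neuron and glia and 1 of 4 mesenchyme and endothelium miRNAs were listed. On simulated counts for the plasmids in oxidized RNA, 141 of 200 sequences changed 8-fold were called, with 5 false calls among 9811 tested. The simulation gave both oxidized groups their pooled mean, with a common dispersion and no selection of the listing. Its rates therefore check the fit only and do not carry over to these data. Alternatives were DESeq2 1.42.0, other scalings and filters, left-out libraries, a replicate block and fits on fewer libraries or sequences.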

Additional observations from a re-analysis of the deposited data

How the results depend on the processing

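For the plasmids in oxidized RNA, 12 family sequences were called higher. For 7 of them, absent from oxidized control RNA, the listing had fixed the direction. The number called higher was 5 with total-count scaling and 3 among miRNA and precursor sequences alone. In a fit of the 4 libraries compared it was 7 of 10 tested, and with sequences summed by miRNA name 4 of 4. For the plasmids before oxidation it was 0, 2 with DESeq2's Wald test, and 0 to 0 with 1 library left out. For oxidation with the control plasmid it was 15 lower, 11 (and 3 higher) with total counts, 12 with the upper quartile, 10 (and 3 higher) among miRNA sequences alone, 14 of 14 tested in the 4 libraries compared, 4 of 4 when summed, and 13 to 15 with 1 library left out. With the methyltransferase, the 22-nt miR-16-5p at -6.75 was -5.87 with total counts, -5.96 with the upper quartile, -5.36 among miRNA sequences alone, -6.03 when summed, and -7.02 to -6.36 with 1 library left out. Against the main scaling, the median of all sequences shifted most with total counts, by -2.99 for the plasmids in oxidized RNA and by 4.3 for oxidation with the control plasmid. Signs reversed in oxidized RNA between plasmids among miRNA sequences alone for the 21-nt (-0.12) and 20-nt (-0.28) miR-16-5p, miR-15a-5p (-0.25) and the form with C as first base (-1.28; -0.10 with total counts). Before oxidation, with total counts and among miRNA sequences alone, they reversed for the 22-nt miR-16-5p (0.05, 0.23) and the form lacking its first base (0.14, 0.31), and for the 22-nt miR-15b-5p among miRNA sequences alone (0.10). The form with C as first base, at 0.13, was -0.08 with DESeq2 size factors, -0.09 with DESeq2's Wald test, -0.22 without non-oxidized control replicate 1, -0.08 without non-oxidized methyltransferase replicate 1 and up to 0.55 with another library left out. The cause of these changes was not tested, beyond that fewer sequences or libraries enter some fits.

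The family's share was 4.27% of all listed counts before oxidation with the control plasmid and 4.24% with the methyltransferase, and after oxidation 0.0546% with the control plasmid and 0.131% with the methyltransferase. With precursor counts in the denominator it was 5.26%, 5.78% and 0.179% in the 2 non-oxidized groups and oxidized methyltransferase RNA, and with the family's precursor sequences also counted 5.5%, 5.93% and 0.219%. Without the 5 most abundant miRNAs it was 17.2%, 19%, 5.93% and 0.888%. With 1 library left out it was 6.24% to 6.77% and 6.63% to 7.05% before oxidation, and 1.6% to 1.72% and 0.194% to 0.2% after it. Replicate numbers are shared by the groups. The correlation of same-numbered deviations was 0.56 between the non-oxidized groups and -0.01 to 0.14 between the other pairs of groups. The main fit did not pair libraries, so a shared replicate effect may remain in the comparison of plasmids before oxidation. With the replicate block, 12, 0 and 15 family sequences were called in the 3 comparisons and the 22-nt miR-16-5p was -6.73 with oxidation in methyltransferase RNA. The few mature miRNA counts in oxidized control RNA limit every fold taken against that group.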
